A study of Homo sapiens with 6 samples.

Results

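The genes described here encode the integrins, the laminins and the proteins that link laminin networks to each other, to cells and to the rest of the basement membrane. They were taken by symbol from the count tables: every integrin alpha and beta subunit, every laminin alpha, beta and gamma chain, and NID1, NID2, HSPG2 and AGRN. This gave 42 genes of 19977, of which 26 are integrin subunits (18 alpha and 8 beta), 12 are laminin chains and 4 are linkers. Transcripts were measured by bulk RNA-seq in NCRM-1, an established wild-type human induced pluripotent stem cell line, grown as aggregates in vertical wheel bioreactors for 4 days after seeding as single cells from vitronectin-coated plates. In the PEG and HS group (3 libraries) the E8 medium held 10 mg/ml polyethylene glycol (PEG) and 0.1 µg/ml heparin sodium salt (HS), and in the E8 control group (3 libraries) it held neither. In both groups 50% of the medium had been replaced on day 2. The comparison asks how transcripts of cell-matrix adhesion differed between aggregates grown with and without these additives. By the labels each medium had 1 bioreactor, and so the vessel and the medium cannot be told apart, and p-values measure only the spread between these libraries, which may be technical. One text field of the labels describes the additives for all 6 libraries, and each library was placed by its treatment label.

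The libraries held 26991279 to 36185138 counts. The labelled cell type was checked with 12 pluripotency genes, including POU5F1, NANOG and SOX2. All 12 were at 1 CPM (counts scaled to library size) or more, with a summed level of 9541 to 9811 CPM with PEG and HS against 9854 to 10060 CPM in E8 control. By edgeR's quasi-likelihood test, 5 of the 12 were called higher in PEG and HS and 4 lower, with log2 fold changes of 0.55 for NANOG, 0.23 for POU5F1 and -0.59 for SOX2.

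Integrins are receptors of 1 alpha and 1 beta subunit that span the membrane and tie the matrix to the actin cytoskeleton. The alpha subunit largely sets which ligand is bound: some pairs bind laminins, some bind the RGD motif of fibronectin and vitronectin, some bind collagens, and others are restricted to leukocytes. Laminins are secreted trimers of an alpha, a beta and a gamma chain that polymerise on the cell surface into the first sheet of a basement membrane. Nidogens join that sheet to collagen IV, perlecan (HSPG2) and agrin (AGRN) are heparan sulfate proteoglycans bound to it, and agrin also holds laminin to dystroglycan on the cell. Pluripotent stem cells attach to laminin through integrins with the alpha 6 and beta 1 subunits, and to vitronectin through integrins with alpha V and beta 5.

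In PEG and HS the laminin chains and linkers were mostly lower and the main integrin beta subunits were higher. Of the 42 genes, 39 had at least 10 counts over the 6 libraries and were tested with edgeR. Of these, 17 passed an adjusted p of 0.05, 6 higher and 11 lower, which is 43.6% of those tested against 25.3% of all 16505 genes tested. Among all genes, 12.2% were called higher and 13.1% lower. The receptors and the ligands are counted apart. Among the 24 integrin subunits tested, 4 rose (ITGB1, ITGB5, ITGA5 and ITGA2), 2 fell (ITGA6 and ITGB8) and 18 did not pass, so that 25.0% were called, close to the share of all genes, with a median log2 fold change of 0.11. Among the 15 laminins and linkers tested, 2 rose (LAMA1 and LAMC3), 9 fell (LAMA2, LAMA4, LAMA5, LAMB1, LAMB2, LAMC1, AGRN, HSPG2 and NID2) and 4 did not pass, so that 73.3% were called, with a median log2 fold change of -0.31. The median over all genes was 0.0031. These shares depend on level, since no gene of the 39 under a mean of 1 CPM in both media was called. Among genes at a mean of 1 CPM or more in either medium, 37.5% of the 16 integrin subunits were called. At that level the share was 84.6% for the laminins and linkers and 29.6% for all genes. No overlap between the media was found in 9 of the integrin subunits and in 12 of the laminins and linkers tested, against 39.3% of all genes. Most changes were small. Of the 39 genes, 0 were called with an absolute log2 fold change over 1, against 2.02% of all genes. When tested against a change of 1.2-fold, a threshold passed by 5.26% of all genes, 6 of the 39 were called, all of them lower (ITGB8, LAMA4, LAMA5, LAMB1, AGRN and NID2). With each library corrected for GC content and gene length, 7 were called higher and 9 lower, and over all genes 2840 were called higher and 1984 lower, against 2016 and 2157 without the correction. Because RNA was taken from whole aggregates, fewer cells of a type and less RNA per cell cannot be told apart.

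**Figure D1:**
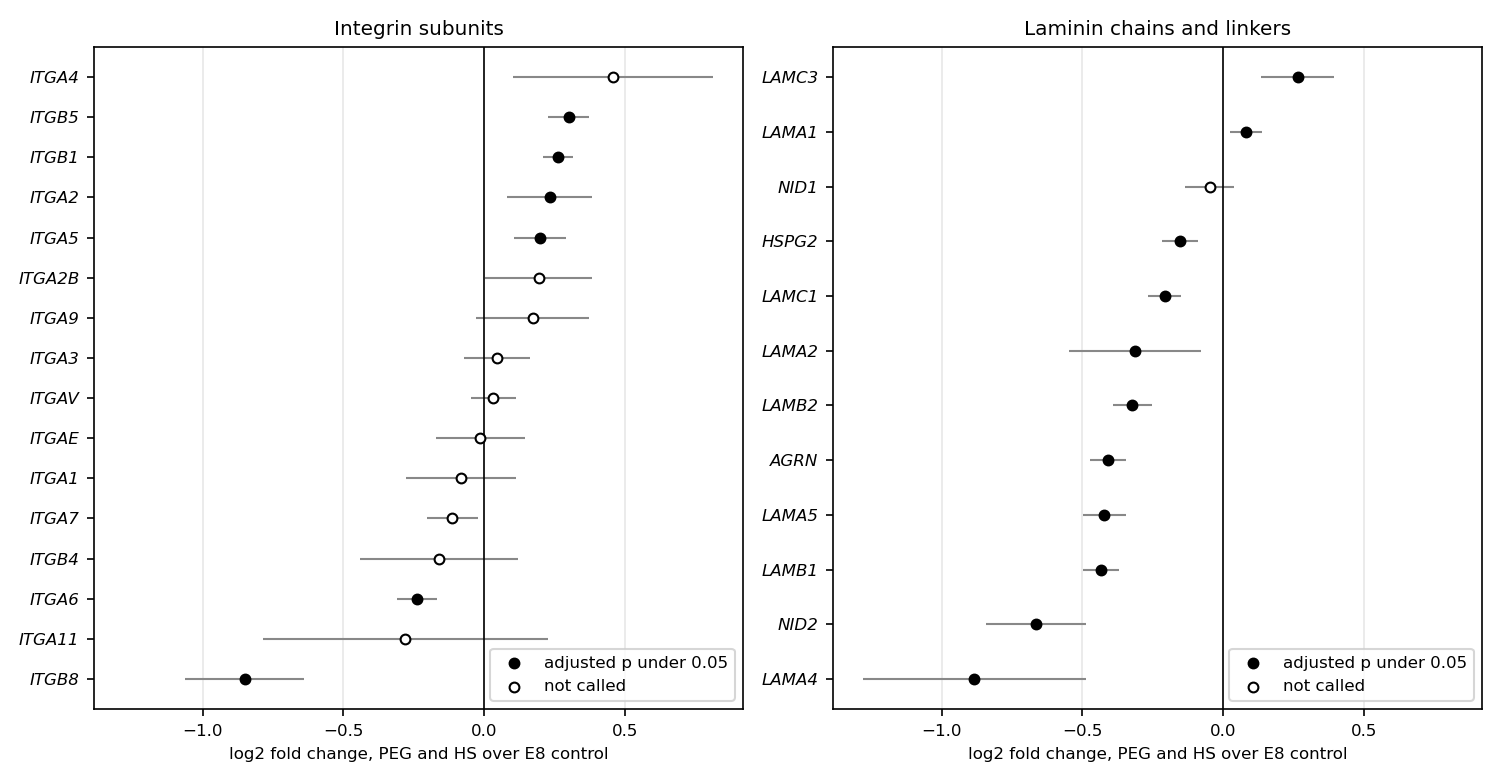
Log2 fold change of PEG and HS over E8 control (horizontal axis) for 16 integrin subunits and 12 laminin chains and linkers with a mean of at least 1 CPM in either medium; bars are 95% intervals from the edgeR fit and filled points passed an adjusted p of 0.05. On the right 9 filled points lie below 0 and 2 above, while on the left 4 lie above 0 and 2 below.

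ITGB1 (chr10:32887273-33005792, minus strand, GRCh38) encodes the beta subunit shared by the laminin, collagen and fibronectin receptors, and it had the most counts of the integrins. It was at 423, 409.9 and 422 CPM in the 3 PEG and HS libraries and at 350, 344 and 352 CPM in the 3 E8 control libraries. All PEG and HS libraries were above all E8 control libraries, with a log2 fold change of 0.26 ± 0.0257 (SE; adjusted p = 1.84e-06, edgeR). A processed pseudogene, ITGB1P1, is the gene with which ITGB1 transcripts share most sequence, and 5.69% of the 31-base words of ITGB1 transcripts occur in transcripts of other genes.

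ITGA6 (chr2:172427354-172506459, plus strand) is the laminin-binding alpha subunit that pairs with ITGB1 or ITGB4. It moved the other way from ITGB1, at 223, 217 and 233 CPM with PEG and HS against 262, 257 and 275 CPM in E8 control. The groups did not overlap and the log2 fold change was -0.24 ± 0.0332 (adjusted p = 6.84e-05, edgeR). The ratio of ITGB1 to ITGA6 counts within a library, which does not depend on scaling, was 1.90, 1.89 and 1.81 with PEG and HS against 1.33, 1.34 and 1.28 in E8 control. This ratio was chosen after the values were seen and is given as a description. The other laminin-binding subunits were not called in the main test, by edgeR on all 6 libraries. ITGA7, a laminin-binding alpha subunit best known from muscle, had means of 70.9 ± 2.499 CPM (SD, n = 3) with PEG and HS against 76.8 ± 4.45 CPM in E8 control, with a log2 fold change of -0.11 (adjusted p = 0.0666, edgeR). It passed without E8 control replicate 3 (adjusted p = 0.0103, edgeR) and under 4 of the other alternatives. ITGA3, an alpha subunit of laminin receptors in epithelia, was at 24.6 to 25.6 CPM with PEG and HS against 23.4 to 26.1 CPM in E8 control, and the 95% interval of its log2 fold change ran from -0.07 to 0.16. ITGB4, the beta subunit of hemidesmosomes, was low at 4.51 to 4.88 CPM with PEG and HS against 4.596 to 6.49 CPM in E8 control, with an interval from -0.44 to 0.12.

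The RGD-binding integrins included 2 of the 4 subunits that rose. ITGB5 (chr3:124761948-124901418, minus strand) encodes the beta partner of ITGAV in a vitronectin receptor. It was at 161, 158 and 165 CPM with PEG and HS against 125, 135 and 134 CPM in E8 control. The groups were apart and the log2 fold change was 0.30 ± 0.0334 (adjusted p = 7.18e-06, edgeR). Its partner ITGAV gave 74.8, 75.1 and 73.4 CPM with PEG and HS against 76.65, 69.6 and 72.2 CPM in E8 control, which overlapped, with a log2 fold change of 0.03 and a 95% interval from -0.05 to 0.11. ITGA5, the alpha subunit of the classical fibronectin receptor, was at 42.0, 43.2 and 45.1 CPM with PEG and HS against 36.5, 39.1 and 37.8 CPM in E8 control. All PEG and HS libraries were higher, by 0.20 ± 0.0435 on the log2 scale (adjusted p = 0.00318, edgeR).

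ITGB8 (chr7:20330702-20415754, plus strand), which pairs with ITGAV and is known for releasing latent TGF-beta, gave the largest change among the integrins called. It stood at 3.71, 3.50 and 4.05 CPM with PEG and HS against 6.56, 7.05 and 6.73 CPM in E8 control. Every E8 control library was above every PEG and HS library, and the log2 fold change was -0.85 ± 0.0994 (adjusted p = 1.24e-05, edgeR). ITGB8 was the integrin that also passed the test against a 1.2-fold change. ITGA2B, the alpha subunit of the platelet fibrinogen receptor, was at 6.52 to 7.29 CPM with PEG and HS against 5.76 to 6.38 CPM in E8 control (adjusted p = 0.132, edgeR). Its platelet partner ITGB3 was counted at only 0.148 to 0.296 CPM over the 6 libraries. Another protein-coding gene on the same strand overlaps 33.2% of ITGB3 exon bases and had 0 counts. Of the 31-base words of ITGB3 transcripts, 38.8% occur in transcripts of other genes. How reads shared between genes were counted is not given in the sources used here, so ITGB3 may be undercounted.

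Of the collagen-binding alpha subunits, ITGA2 passed the test, at 14.2, 12.7 and 12.7 CPM with PEG and HS against 10.6, 11.5 and 11.6 CPM in E8 control. The log2 fold change was 0.23 ± 0.0705 (adjusted p = 0.0246, edgeR), and the call was lost without PEG and HS replicate 1 (adjusted p = 0.132), without E8 control replicate 1 (0.0955) and with DESeq2 (0.0795). ITGA1 was at 6.97 to 8.45 CPM with PEG and HS against 7.54 to 8.77 CPM in E8 control, and ITGA11 at 1.48 to 2.10 CPM and 1.47 to 2.96 CPM, both with overlapping groups. Outside these classes, ITGA4 and ITGA9, alpha subunits that bind VCAM1 and tenascin among others, had log2 fold changes of 0.46 (adjusted p = 0.0569, edgeR) and 0.17 (adjusted p = 0.209, edgeR). ITGAE, known from intraepithelial lymphocytes, was at 9.52 to 10.9 CPM with PEG and HS against 9.93 to 10.5 CPM in E8 control. The leukocyte subunits ITGAL, ITGAM, ITGAX, ITGB2 and ITGB7 were under 1 CPM in every library, as were ITGA8, ITGA10 and ITGB3, none of them called, and ITGAD and ITGB6 had no count in any library. A count of 0 allows up to 3 counts per library, which covers counting error only.

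**Figure D2:**
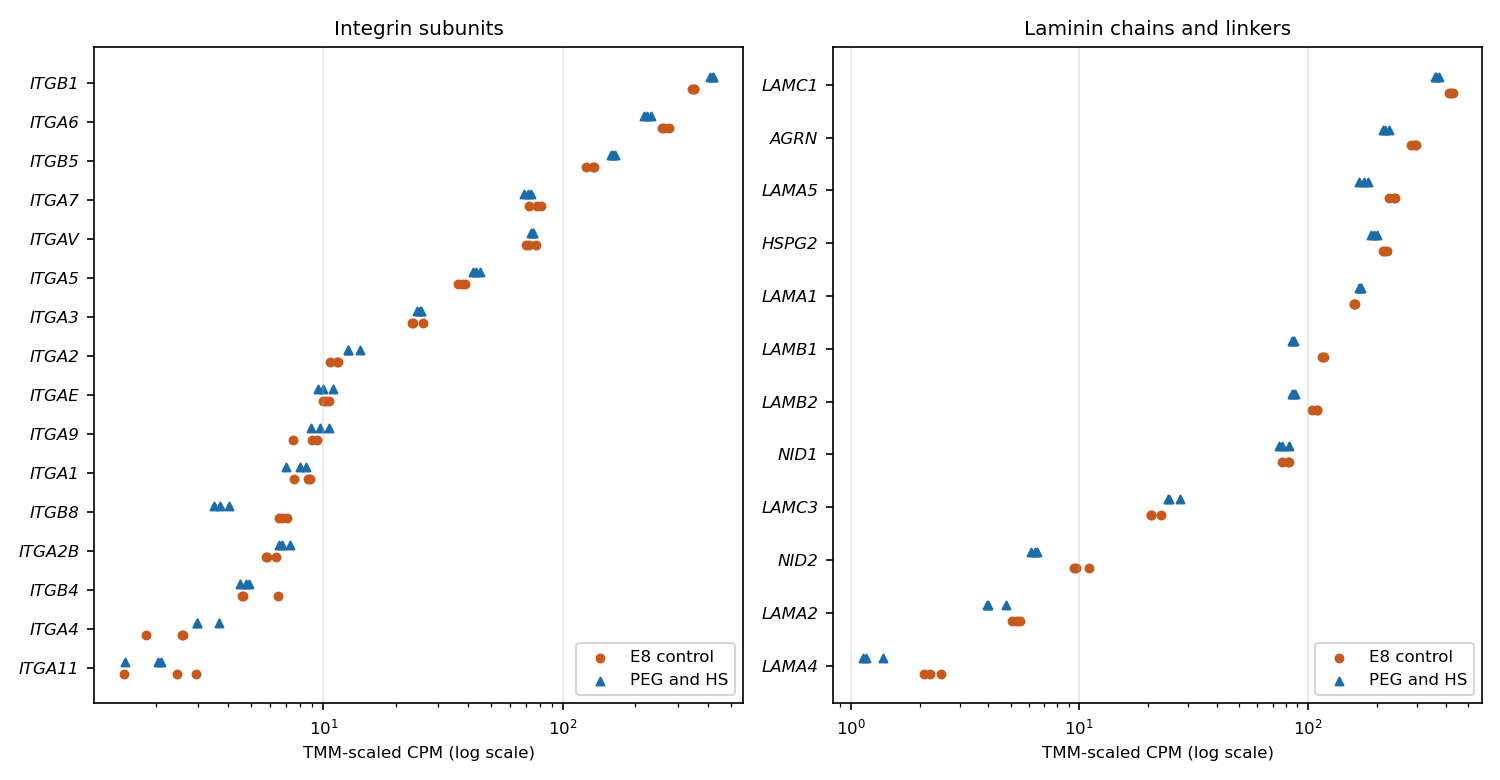
TMM-scaled CPM on a log scale (horizontal axis) of the same 16 integrin subunits and 12 laminin chains and linkers, with 1 point for each library: circles for the 3 E8 control libraries and triangles for the 3 PEG and HS libraries. The triangles of ITGB1 and ITGB5 lie to the right of the circles, and those of ITGA6, ITGB8, LAMA5, LAMB1, LAMC1, AGRN and NID2 to the left.

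Among the laminin alpha chains, LAMA5 and LAMA1 had most of the counts. LAMA5 (chr20:62307955-62367312, minus strand), the alpha chain of the laminins on which pluripotent cells are commonly grown, was at 167 to 183 CPM in the 3 libraries with PEG and HS against 238, 241 and 226 CPM in E8 control. The groups were well apart and the log2 fold change was -0.42 (adjusted p = 4.32e-07, edgeR). LAMA1 (chr18:6941742-7117797, minus strand), the alpha chain of the early embryonic laminin, was at 167, 170.0 and 169.8 CPM with PEG and HS against 159, 159.8 and 160.3 CPM in E8 control. LAMA1 rose by a small amount, 0.08 on the log2 scale with a 95% interval from 0.03 to 0.14 (adjusted p = 0.0342, edgeR), and its call was lost when any 1 of the 6 libraries was left out (adjusted p from 0.058 to 0.11). With the correction for GC content and length its log2 fold change was 0.14 (adjusted p = 0.000335, edgeR). The ratio of LAMA5 to LAMA1 counts in a library was 1.05, 1.08 and 0.983 with PEG and HS against 1.495, 1.511 and 1.41 in E8 control, a description chosen after the values were seen.

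The less counted alpha chains were lower or near the detection limit. LAMA4, the alpha chain of vascular laminins, was at 1.13, 1.17 and 1.39 CPM with PEG and HS against 2.22, 2.09 and 2.49 CPM in E8 control. Its log2 fold change was -0.89 (95% interval from -1.28 to -0.49, adjusted p = 0.00238, edgeR), the largest among the genes called here. LAMA2, the alpha chain of muscle laminin, was at 4.00, 3.96 and 4.79 CPM with PEG and HS against 5.49, 5.08 and 5.32 CPM in E8 control. Its adjusted p of 0.0497 (edgeR; log2 fold change -0.31) was near the threshold, and LAMA2 was called in 6 of the 16 alternatives. The call was lost with DESeq2 (adjusted p = 0.143), limma-voom (0.0537), library size alone (0.055), the correction for GC content and length (0.0709) and the 1.2-fold test, and on leaving out any library other than PEG and HS replicate 3 (adjusted p from 0.0715 to 0.165). LAMA3, of epithelial laminins, had a mean of 0.840 CPM with PEG and HS against 0.775 CPM in E8 control and was not called.

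Both abundant beta chains fell. LAMB1 (chr7:107923799-108003213, minus strand) was at 85.0, 86.2 and 86.9 CPM with PEG and HS against 115, 116 and 118 CPM in E8 control, with a log2 fold change of -0.44 and the lowest adjusted p of the 39 genes (3.04e-08, edgeR). LAMB2 (chr3:49121114-49133118, minus strand), the beta chain of neuromuscular and kidney laminins, was at 87.8, 86.1 and 85.0 CPM with PEG and HS against 109.5, 109.7 and 105 CPM in E8 control, a log2 fold change of -0.32 (adjusted p = 2.14e-06, edgeR). For each beta chain all PEG and HS libraries lay under all E8 control libraries. LAMB3, a beta chain of epithelia, was under 1 CPM in every library, and LAMB4 had 3 counts in all and was not tested.

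LAMC1 (chr1:183023420-183145592, plus strand), the gamma chain of nearly all laminins, had the most counts of all laminin chains, at 363, 359 and 375 CPM with PEG and HS against 414, 425 and 429 CPM in E8 control. The groups did not overlap, with a log2 fold change of -0.21 (adjusted p = 3.63e-05, edgeR). LAMC3 rose instead, from 22.7, 20.5 and 20.6 CPM in E8 control to 24.3, 27.5 and 24.8 CPM in PEG and HS, by 0.27 on the log2 scale (adjusted p = 0.00456, edgeR).

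LAMA5, LAMB1 and LAMC1 encode the chains of a single trimer and fell together, so the bases before their transcription starts are shown, from RefSeq on GRCh38.p14. Each is written on the strand of the gene, 5′ to 3′, up to the base before the start, and bases within the GENCODE 44 bounds of the gene are left out, which shortened LAMB1 to 198 bases. Capitals mark GGGCGG or its reverse complement CCGCCC, the GC box letters, with overlapping matches counted separately.
LAMA5 (chr20:62367313-62367562, minus strand): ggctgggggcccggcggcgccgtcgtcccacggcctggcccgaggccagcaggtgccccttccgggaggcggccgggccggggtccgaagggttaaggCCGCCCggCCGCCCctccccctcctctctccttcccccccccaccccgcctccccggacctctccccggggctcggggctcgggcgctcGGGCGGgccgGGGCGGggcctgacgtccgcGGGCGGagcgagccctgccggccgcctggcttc
LAMB1 (chr7:108003214-108003411, minus strand): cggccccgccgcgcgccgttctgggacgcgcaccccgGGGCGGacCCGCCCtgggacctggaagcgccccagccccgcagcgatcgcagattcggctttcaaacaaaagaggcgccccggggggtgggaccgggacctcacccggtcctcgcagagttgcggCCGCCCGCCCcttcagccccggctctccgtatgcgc
LAMC1 (chr1:183023170-183023419, plus strand): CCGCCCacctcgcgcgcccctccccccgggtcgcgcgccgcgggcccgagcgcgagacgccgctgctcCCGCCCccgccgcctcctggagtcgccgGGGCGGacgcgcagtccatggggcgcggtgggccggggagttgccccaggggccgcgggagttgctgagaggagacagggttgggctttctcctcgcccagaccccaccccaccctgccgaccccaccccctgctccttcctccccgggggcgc
The stretches hold 5, 4 and 3 GC box matches. The motif was not limited to genes that fell. In the 250 bases before a start, ITGA2, which rose, had 4 matches, and ITGB1, which also rose, had 3 at 1 start and 0 at the other. LAMB2, which fell, had 1. Promoter entries matched 29 of the 42 genes, with 36 starts in all, and a GC box occurred in the 250 bases before 20 of these 36 starts (55.6%), against 42.6% of all 35116 starts. The letters GGAATG, a TEAD-type motif, occurred on either strand before 4 of the 36 (11.1% against 11.9%), and TGANTCA, an AP-1-type motif, before 2 (5.56% against 6.57%). Matches of letters are a description and not evidence of binding.

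Of the 4 linkers, 3 fell. AGRN (chr1:1020120-1056118, plus strand) had the most counts of them, at 217, 227 and 214 CPM with PEG and HS against 294, 297 and 283 CPM in E8 control. The groups were clearly apart and the log2 fold change was -0.41 (adjusted p = 6.94e-08, edgeR). HSPG2 (chr1:21822244-21937310, minus strand) was at 194, 202 and 189 CPM with PEG and HS against 221, 216 and 214 CPM in E8 control, a log2 fold change of -0.15 (adjusted p = 0.0014, edgeR). With the libraries corrected for GC content and length, HSPG2 was no longer called and its value moved over 1.5 times, to -0.05 (adjusted p = 0.0964, edgeR).

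The nidogens differed from each other. NID1 (chr1:235975830-236065109, minus strand) was at 76.7, 82.5 and 75.0 CPM with PEG and HS against 77.2, 82.1 and 82.3 CPM in E8 control, with overlapping groups and a 95% interval of the log2 fold change from -0.13 to 0.04. NID2 (chr14:52004809-52069059, minus strand) was lower in level and fell, at 6.38, 6.55 and 6.15 CPM with PEG and HS against 9.71, 11.1 and 9.45 CPM in E8 control. Its log2 fold change was -0.67 ± 0.0839 (SE; adjusted p = 2.66e-05, edgeR), and the interval, from -0.84 to -0.49, did not meet that of NID1. RTRAF on the other strand overlaps 30.7% of NID2 exon bases, the strand setting of the counting is not given in the sources used here, and RTRAF itself was at 172.6 ± 5.86 CPM with PEG and HS against 175.0 ± 3.55 CPM in E8 control.

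Some markers of other cell types were lower in PEG and HS, mainly from the lists of neuroectoderm and of trophectoderm and amnion. Over all genes tested, 12.2% were called higher and 13.1% lower, which are the shares to set beside each count of markers. Of 7 neuroectoderm markers, 5 were lower and 0 higher in PEG and HS. Their summed level was 543 to 579 CPM against 673 to 698 CPM in E8 control, with none at 0 throughout. NES, a neural progenitor filament that pluripotent cells also express, made up most of this sum, and without it the other 6 markers summed to 11.6 to 13.8 CPM with PEG and HS against 43.0 to 46.3 CPM. Of 7 trophectoderm and amnion markers, 5 were tested and 3 were lower, with sums of 4.33 to 4.82 CPM against 13.3 to 13.7 CPM and 1 marker at 0 throughout. Nearly all of this sum was TFAP2A (means of 0.604 CPM with PEG and HS against 6.00 CPM) and KRT7 (3.76 CPM against 7.10 CPM). CDX2, GATA3, TP63 and HAND1 were under 1 CPM in every library. Of 7 mesoderm and primitive streak markers, 2 were lower, with sums of 7.98 to 9.46 CPM against 9.88 to 11.2 CPM. HAND1 is in this list and in that of trophectoderm and amnion, and is counted as lower in both. It had only 16 counts over the 6 libraries. Of 6 mesenchyme markers, 1 was higher and 1 lower, with sums of 553 to 585 CPM against 472 to 499 CPM. The higher sum came from THY1, which is also abundant in pluripotent cells (408 CPM against 264 CPM), and without it the other 5 markers ran the other way, at 156 to 162 CPM with PEG and HS against 216 to 231.5 CPM, most of it COL1A1, the lower marker, and COL1A2, which was not called. Of 5 endothelial markers, 1 was higher and 2 were lower. Extraembryonic endoderm, a source of laminin in the embryo, had 0 of 6 markers called, with sums of 8.67 to 9.87 CPM against 9.95 to 10.9 CPM, and none of the 4 definitive endoderm and 4 blood markers that could be tested, of 6 and 5, was called. The part of these cell types in these results was not tested.

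To compare levels between genes, counts were also scaled per exon length to TPM, which sums to the same total in every library. By this measure, ITGB1 made up 52.7% ± 0.341 (SD, n = 3) of summed integrin beta TPM with PEG and HS against 52.8% ± 1.24 in E8 control, and ITGB5 most of the rest. ITGA6 made up 55.6% ± 1.03 of integrin alpha TPM with PEG and HS against 60.5% ± 1.26 in E8 control. The summed alpha level was 239 ± 5.58 TPM with PEG and HS against 254 ± 5.23 TPM in E8 control, while the summed beta level was 216 ± 4.40 and 175.8 ± 3.98 TPM. The alpha to beta ratio was therefore 1.10, 1.11 and 1.12 with PEG and HS against 1.48, 1.42 and 1.44 in E8 control. With the longest transcript as gene length the ratio was lower in both media, at a mean of 0.780 and 1.004, and PEG and HS again lay below E8 control. The order of ITGA6 and ITGB1 depends on the length used, since ITGA6 was above ITGB1 per union of exons (133 against 114 TPM in PEG and HS) and below it per longest transcript (112 against 217 TPM).

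**Figure D3:**
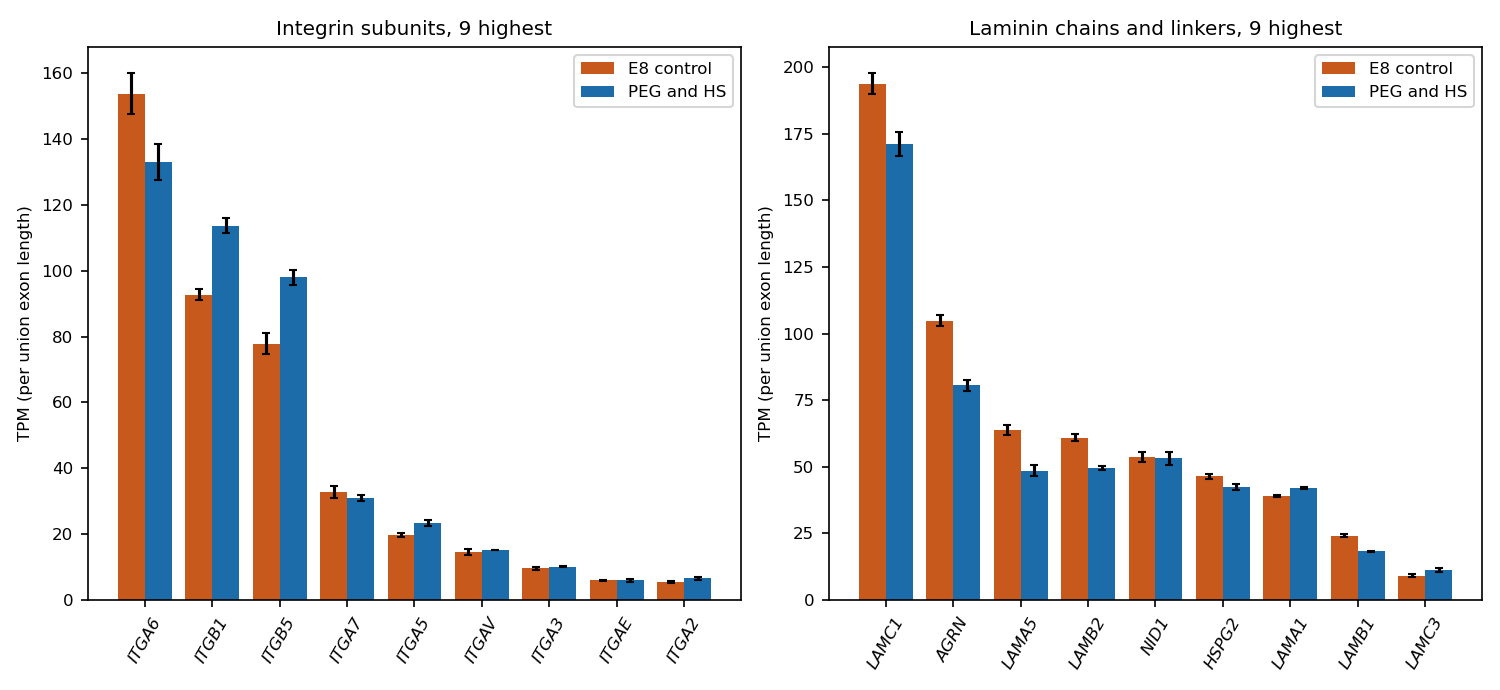
Level per length in TPM (vertical axis, from 0) of the 9 highest integrin subunits and the 9 highest laminin chains and linkers; bars are means and error bars SDs of 3 libraries in E8 control and in PEG and HS. ITGA6, ITGB1 and ITGB5 stand above the other integrins, and LAMC1, at 194 TPM in E8 control and 171 TPM in PEG and HS, above the other laminins and linkers.

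Among the laminins, LAMC1 made up 90.6% ± 0.314 of gamma chain TPM with PEG and HS against 92.3% ± 0.346 in E8 control, and LAMB2 made up 72.7% ± 0.646 of beta chain TPM with PEG and HS against 71.1% ± 0.818 in E8 control. The LAMB2 share depends on the length used. Per longest transcript LAMB2 was at 54.1% and LAMB1 at 45.6% with PEG and HS, against 52.1% and 47.45% in E8 control. LAMA5 took 52.8% ± 1.24 of alpha chain TPM with PEG and HS against 61.0% ± 0.943 in E8 control, and LAMA1 took 45.9% ± 1.12 and 37.4% ± 0.848. LAMA5 was the higher of these chains in both media per union of exons, whereas per longest transcript LAMA1 was the higher in PEG and HS, at 50.4% against 47.5%. The gamma chain sum was the highest of the chain classes, at 189 ± 4.79 TPM with PEG and HS against 209.8 ± 3.61 TPM in E8 control, the alpha sum was 92.0 ± 1.89 and 105 ± 1.56 TPM, and the beta sum was 68.4 ± 0.348 and 85.7 ± 0.968 TPM. In each class the PEG and HS libraries lay below the E8 control libraries.

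The ligands and receptors were set against each other as the ratio of summed laminin and linker TPM to summed integrin TPM. It was 1.159, 1.2 and 1.14 with PEG and HS against 1.43, 1.45 and 1.39 in E8 control, so that no library of one medium reached the range of the other. Per longest transcript the means were 0.849 ± 0.0211 and 1.08 ± 0.0181, which moves the ratio below 1 in PEG and HS while the order of the media stays. The ligand sum was 529.6 ± 4.97 TPM with PEG and HS against 611 ± 2.09 TPM in E8 control, and the integrin sum was 455 ± 9.76 and 429.8 ± 8.18 TPM. The integrin sum also holds subunits that do not bind laminin, so the ratio does not set the laminins against their own receptors. The 4 laminin-binding subunits other than the shared ITGB1 had a median log2 fold change of -0.14, with 3 below 0 and 1 above. An exact permutation test of 3 against 3 libraries cannot give a two-sided p below 0.1, and none is given for these sums over chosen genes.

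**Figure D4:**
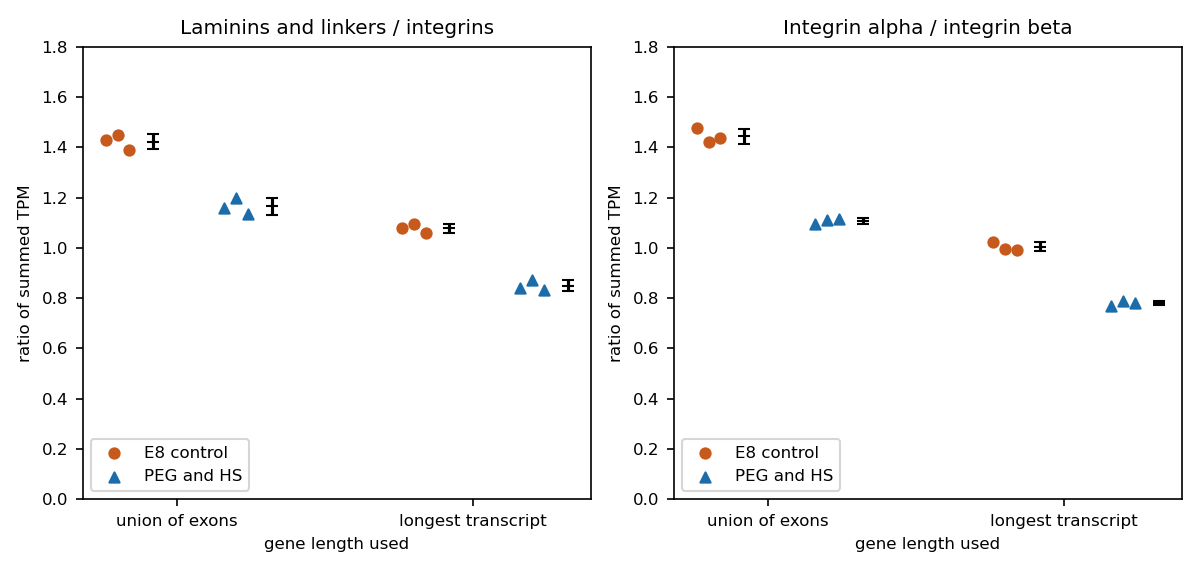
Ratio of summed TPM (vertical axis, from 0) of laminins and linkers to integrins, and of integrin alpha to integrin beta subunits, for each library with both definitions of gene length; the bars beside the points are means and SDs of 3 libraries. For either length and either ratio, the 3 PEG and HS points lie below the 3 E8 control points.

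The genes that work with these receptors and ligands were described with lists written from general knowledge. The share called depends on level, and among all genes at a mean of 1 CPM or more in either medium it was 29.6%. That share is also to be set beside those of the lists. Among 31 integrin adaptors and signalling genes, 6 rose and 5 fell (35.5% called, against 25.3% of all genes), with a median log2 fold change of 0.01. TNS2, a tensin of focal adhesions, was at 13.1, 14.2 and 12.3 CPM with PEG and HS against 8.75, 8.40 and 8.90 CPM in E8 control (a log2 fold change of 0.60, adjusted p = 1.8e-05, edgeR). TNS1 fell by 0.31 (adjusted p = 0.0066, edgeR) and FERMT1, a kindlin that activates integrins, rose by 0.27 on the log2 scale (adjusted p = 0.000413, edgeR). Chosen after their values were seen, the other main kindlin FERMT2 fell (log2 fold change -0.26, adjusted p = 2.32e-05, edgeR), while TLN1 (talin) and ILK were at log2 fold changes of -0.0011 and 0.02 (adjusted p = 0.986 and 0.692, edgeR).

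Among 26 other laminin receptors and integrin partners, 4 rose and 12 fell (61.5% called, against 25.3% of all genes), with a median of -0.10. CD151, a tetraspanin that binds laminin-binding integrins, was at 31.02, 29.6 and 30.5 CPM with PEG and HS against 45.6, 46.3 and 42.3 CPM in E8 control, with no overlap and a log2 fold change of -0.55 (adjusted p = 3.13e-07, edgeR). BCAM, a receptor for the LAMA5 chain, was at 66.5, 66.6 and 65.7 CPM with PEG and HS against 85.6, 85.0 and 83.3 CPM in E8 control (a log2 fold change of -0.35, adjusted p = 6.12e-07, edgeR). CD82, another tetraspanin, fell by 0.63 (adjusted p = 0.00195, edgeR). DAG1, which encodes dystroglycan and was chosen after its values were seen, fell by 0.21 on the log2 scale (adjusted p = 8.23e-05, edgeR).

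Among 30 tested genes for other integrin ligands, 2 rose and 14 fell (53.3% called, against 25.3% of all genes), with a median of -0.23. CCN2, a matricellular protein, was at 12.5, 14.4 and 14.6 CPM with PEG and HS against 26.0, 28.9 and 21.8 CPM in E8 control (a log2 fold change of -0.88, adjusted p = 3.34e-06, edgeR). VWF, at a mean of 0.853 CPM with PEG and HS against 2.34 CPM in E8 control, fell by 1.47 (adjusted p = 0.00017, edgeR), and MADCAM1, a ligand of integrins with ITGA4 and ITGB7, fell by 0.85 on the log2 scale (adjusted p = 0.00118, edgeR). FN1 (fibronectin), chosen after its values were seen, was at a mean of 318 CPM with PEG and HS against 343 CPM in E8 control and did not pass (adjusted p = 0.0888, edgeR).

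Among 28 other basement membrane genes, 5 rose and 12 fell (60.7% called, against 25.3% of all genes), with a median of -0.13. SMOC2 and SMOC1, calcium-binding proteins of basement membranes, had log2 fold changes of -1.71 (adjusted p = 5.84e-06, edgeR) and -1.02 (adjusted p = 0.00243, edgeR), from means of 3.35 and 3.75 CPM in E8 control. CRB2 is an apical polarity protein rather than a matrix component, and was at 2.52, 2.80 and 2.90 CPM with PEG and HS against 7.75, 8.71 and 8.79 CPM in E8 control (a log2 fold change of -1.62, adjusted p = 1.41e-08, edgeR). Chosen after their values were seen, the collagen IV chain COL4A1, to which nidogens bind the laminin sheet, fell by 0.14 on the log2 scale (adjusted p = 0.00313, edgeR), and its trimer partner COL4A2 had a log2 fold change of -0.01 and did not pass (adjusted p = 0.814, edgeR). SERPINH1, the collagen chaperone, chosen in the same way, rose by 0.22 (adjusted p = 1.26e-05, edgeR).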

How the data were processed

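Bulk RNA-seq of NCRM-1 aggregates was analysed in 6 libraries, 3 in PEG and HS and 3 in E8 control, grouped by the treatment in the labels. The authors deposited 1 table of unnormalized gene counts for each library, made from polyadenylated RNA in stranded libraries. Per the labels, the reads were trimmed with Trim Galore 0.6.7 and mapped to GRCh38 with STAR 2.6.1. The counting tool and its use of strand are not given in the sources used here. Of 19977 Ensembl identifiers, 19916 matched GENCODE 44, which gave symbols, lengths and coordinates.

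Genes with at least 10 counts in total were tested with edgeR 4.0.16 in R 4.3.3 (quasi-likelihood F-test after TMM, 2 groups without covariates). P-values were adjusted by Benjamini-Hochberg over all 16505 genes tested, and a call is an adjusted p under 0.05. SE is the size of the log2 fold change over the root of its F value, and the CPM printed are TMM-scaled. The common dispersion, which edgeR terms the biological coefficient of variation, was 3.12%. With it, small differences of well-counted genes between these libraries can be resolved, but those of genes under 1 CPM often cannot. With 1 bioreactor for each medium this spread may be technical, and a difference so resolved may be one of vessel or of medium. Replicates differed by more than counting noise (chi-square of 2.61 to 3.60 for each degree of freedom). Alternatives were DESeq2 1.42.0, limma-voom (limma 3.58.1), DESeq2 size factors, library size alone, 3 other filters, leaving out each library, a block for the replicate number, a test against a 1.2-fold change and, chosen after seeing the data, a correction of each library for GC content and length (values for 99.8% of the genes tested). Scripts were tested on simulated data.

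The genes, the lists and the tests were chosen with earlier results of these data known. Genes with a mean of at least 1 CPM in either medium were named with values, except 1 that is not reported here, as were, from each list, the 3 with the largest change among those called, without overlap and at 1 CPM or more in each library of the higher medium. Protein sequences were not used here.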

Additional observations from a re-analysis of the deposited data

How the results depend on the processing

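Of the 464 log2 fold changes of the 29 genes at 1 CPM or more under the alternatives, 30 lost the call, 7 gained it and the other 427 had the same call. The sign changed in 6 values of 3 genes that were not called (ITGAE, ITGAV and ITGB4, the last from -0.16 to 0.03 without E8 control replicate 3) and in 0 of the genes called. Other than with the 1.2-fold test, the number of the 39 genes called stayed between 14 and 19. Against a 1.2-fold change, 6 of the 39 genes were called, 1 integrin, 5 laminins and linkers, and 18 genes of the 4 lists, where 59 were called against no change; this test asks for a larger change by construction. With 1 library left out, the counts were 14 to 16 for all 39 genes, 5 to 7 for the integrins, 9 to 10 for the laminins and linkers and 52 to 57 for the lists. Calls over all genes fell from 4173 to 3398 with DESeq2.

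Deviations of libraries with the same replicate number correlated only weakly (r of 0.0618, 0.0867 and 0.058), although each library correlated best with its own number. These values do not settle whether the replicate numbers pair the libraries. With the replicate number as a block, 18 of the 39 genes, 7 integrins, 11 laminins and linkers and 61 list genes were called, and ITGA7 gained the call (adjusted p = 0.0202, edgeR).

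Shares and ratios per length moved by more than 1 SD with the longest transcript as gene length, since a constant then multiplies each gene. For PEG and HS and for E8 control in turn, ITGB1 became 66.4% and 66.5% of beta TPM, ITGA6 44.04% and 48.6% of alpha TPM, LAMA5 47.5% and 55.8% of laminin alpha TPM, LAMB2 54.1% and 52.1% of laminin beta TPM, and LAMC1 89.4% and 91.3% of laminin gamma TPM. The ratio of laminins and linkers to integrins became 0.849 and 1.08, and that of alpha to beta 0.780 and 1.004. The depth limits the genes under 1 CPM, of which 0 of the 10 tested changed call under an alternative that tested them.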
